A study of Mus musculus with 11 samples.

Results

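Claudins, the other tight junction proteins, gap junction proteins and desmosome proteins, with 2 epithelial cadherins, were followed in the colon of mice fed inulin. Members were taken by gene name: claudins, Tjp scaffolds, Ocln, Marveld proteins, Cgn, F11r, connexins of the Gja, Gjb and Gjc groups, desmogleins, desmocollins, Dsp, plakophilins, Cdh1 and Cdh17. The names gave 57 genes of the 18820 genes on the array that had a probe set with a single gene symbol. By role these were 9 sealing, 4 channel-forming and 10 other claudins, 8 tight junction partners and scaffolds, 12 connexins, 7 desmosomal cadherins, 5 desmosomal plaque genes and 2 epithelial cadherins. Other genes that carry such names were not analysed here.

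Mucosal scrapings were taken from male C57BL/6J mice of 12 weeks and measured on 1 array per mouse. After 2 weeks of adaptation on a low-fat diet, control mice (n = 5) stayed on it for 10 days. Inulin mice (n = 6) instead ate that diet with inulin in place of corn starch at 10% of its weight. Inulin is a plant fructan that reaches the colon undigested and is fermented there by bacteria. By the treatment protocol the mice were fasted overnight, given 1 g of their diet and killed after 4 h, whereas the series' design text places tissue removal after the fast.

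Epithelial cells of the colon are held together in layers. Tight junctions at the apical edge seal the gap between neighbours: claudins form the strands, some closing the gap and others leaving channels for ions. Ocln, Marveld2, Marveld3 and F11r sit beside the claudins, and the Tjp scaffolds and Cgn tie them to actin. Adherens junctions (Cdh1) and desmosomes (desmogleins, desmocollins, plakophilins and Dsp, anchored to keratin) carry mechanical load, and connexins build the channels of gap junctions. In the mouse colon the claudins change along the crypt and along the length of the organ, and scrapings also hold vessels and muscle with junction genes of their own.

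Array values are log2 values. The 11 arrays had medians between 5.38 and 5.46, and a gene whose mean lay under the lower quartile of all values, 3.76, was counted as having low signal. Of the 57 junction genes 40 lay at or above that value and 17 below it. The 40 are called genes with signal here, although background was not measured. Some of them lay little above 3.76, among them Gja5 at a mean of 3.77 and Cldn10 at 3.94. Colonocyte markers had list means between 11.27 and 11.61 and goblet cell markers between 11.73 and 11.93 in every mouse, whereas squamous epithelium markers lay between 4.26 and 4.48, with 4 of 12 at low signal. Fat cell markers (8 of 8 higher in the inulin mean) ran from 5.38 to 6.04 in control and 5.62 to 8.38 in inulin mice, led by inulin 5 and 4. Pancreatic acinar markers (6 of 7 higher) ran from 5.15 to 6.89 and from 5.31 to 10.75, led by inulin 3. Inulin 5 stood apart on the first principal component, at 37.0 against -12.3 to 13.5 in the other mice.

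None of the junction genes passed the test of inulin against control. In limma, 0 of 57 had an adjusted p under 0.05, with the smallest at 0.21, beside 17 of all 18820 genes (0.0903%). At an unadjusted p under 0.05 there were 6 of 57, or 10.5%, against 13.5% of all genes. Of the 57, 4 (7.02%) were higher under inulin at that p, against 6.34% of all genes, and 2 (3.51%) were lower, against 7.19%. With an unmoderated test allowing unequal variances 0 of 57 passed after adjustment and 5 had an unadjusted p under 0.05. In 0 of 57 genes were the 2 diets free of overlap, against 2.18% of all genes. Leaving out each mouse in turn, the adjusted count stayed at 0, the lower count ran from 1 (without control 1, 3, 4 or 5 or inulin 2) to 4 (without inulin 1), and the higher count from 2 (without control 1) to 5.

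Among the 40 genes with signal, 4 (10%) had an unadjusted p under 0.05 against 15.9% of all 14619 genes with signal. Of the 40, 1 (2.5%) was lower under inulin at that p, against 8.82% of all with signal, and 3 (7.5%) were higher, against 7.12%. The diets were free of overlap in 0 of the 40 (2.66% of all with signal).

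The differences were small. Their median was 0.03 over the 57 genes and 0.0039 over all genes, and 33 of 57 differences were above 0 (51.4% of all genes were), or 25 of the 40 with signal (49.3% of all). The 95% interval lay inside 1.5-fold in both directions for 56 of 57 members, against 94.9% of all genes. Among the 40 members with signal this held for 39, against 93.7% of all with signal, and the exception was Cldn8. Such an interval bounds the change of RNA in the scraping. In a bulk scraping, fewer cells of a type and less RNA per cell cannot be told apart.

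**Figure D1:**
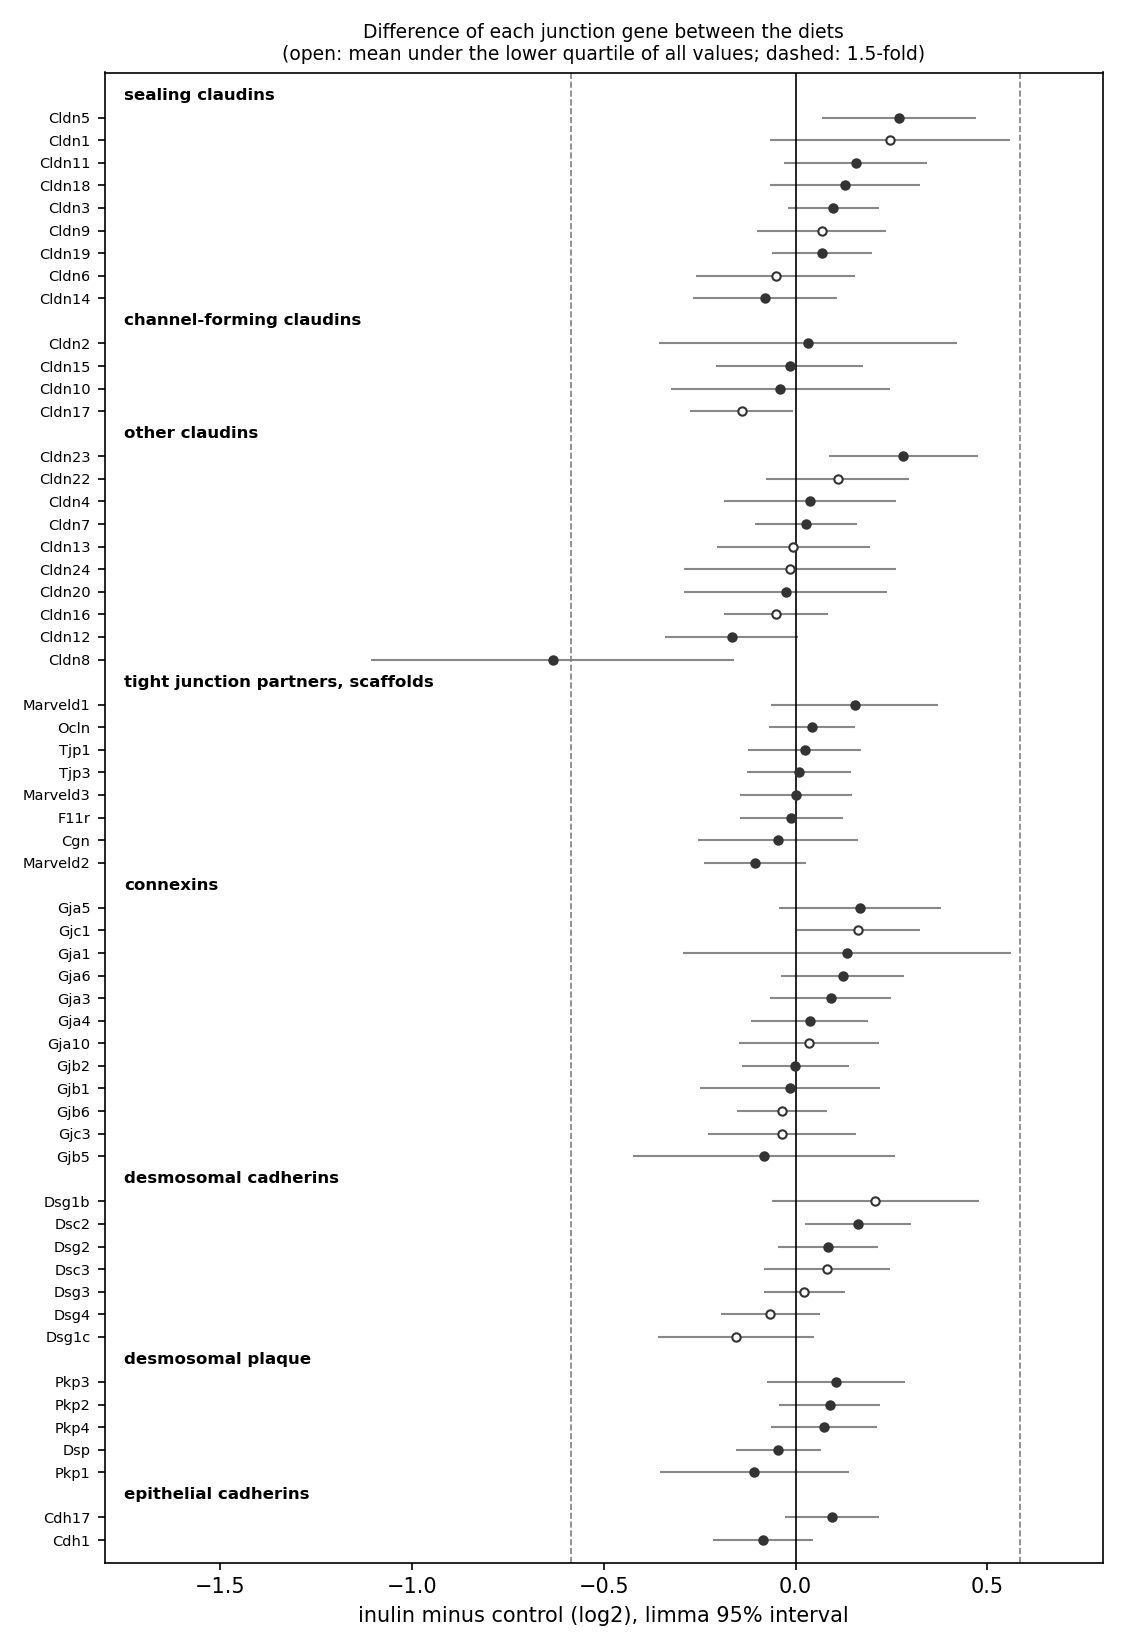
Difference of each of the 57 junction genes between the diets (inulin minus control, log2, horizontal axis), grouped by role, with limma's 95% interval. Open points are the 17 genes at low signal and dashed lines mark 1.5-fold. Every interval but that of Cldn8, at -0.63, stays between the dashed lines.

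Of the sealing claudins, which close the space between cells, 7 of 9 had a higher mean under inulin (51.4% of all genes did), and 0 passed. By their means 3 of the 9 were at low signal. Cldn3, a broadly expressed claudin of the intestine, was at 11.02, 11.04, 10.99, 10.88 and 10.97 in control mice 1 to 5. In inulin mice its lowest, median and highest values were 10.96, 11.12 and 11.15. The ranges overlapped, and the difference was 0.10 ± 0.055 (SE), or 1.07-fold with 95% limits of 0.986 and 1.16 (limma adjusted p 0.46).

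Cldn5, the claudin of blood vessel walls, had the second smallest p of the family. Its mean over the 11 arrays was 4.40, not far above the lower quartile of 3.76. It was at 4.30, 4.33, 4.25, 4.19 and 4.20 in control and at 4.34, 4.66, 4.37, 4.74, 4.75 and 4.28 in inulin mice 1 to 6. Inulin 2, 4 and 5 were above every other mouse, while inulin 6 lay inside the control range. The difference was 0.27 ± 0.093 (SE, n = 5 and 6), or 1.21-fold with limits of 1.05 and 1.39 (limma adjusted p 0.23). Endothelial markers were higher in 7 of 8, 0 of them past the adjusted threshold. Their list mean ran from 4.43 to 4.62 in control, while inulin 2, 4 and 5 had 4.91, 5.07 and 5.40 and inulin 1, 3 and 6 had 4.75, 4.58 and 4.53. The same 3 mice were thus highest in Cldn5 and in these markers. Without inulin 3, 4 and 5 the Cldn5 difference was 0.17, and with fat cell and pancreas marker means as covariates it was 0.05. The part of the vessel content in the Cldn5 difference was not tested.

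The other sealing claudins had differences from -0.08 (Cldn14) to 0.25 (Cldn1). Cldn1 lay at 3.60, 3.55, 3.42, 3.31 and 3.69 in control, and at 3.51 to 3.71 in inulin mice 1, 2, 3, 4 and 6, with inulin 5 alone at 4.44. Its mean was at low signal, and without inulin 5 its difference was 0.11, less than the 0.25 with it by more than 1.5 times. Cldn11, known from myelin and testis, was at 4.14, 3.99, 4.38, 4.07 and 4.23 in control and had a lowest, median and highest value of 4.16, 4.28 and 4.53 under inulin. The ranges overlapped (difference 0.16 ± 0.086 SE, limma adjusted p 0.45). Cldn18 and Cldn19 differed by 0.13 and 0.07, and the low-signal Cldn9 and Cldn6 by 0.07 and -0.05.

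The channel-forming claudins showed no common direction, and 0 of 4 passed. Cldn2, a channel for cations and water in leaky epithelia and crypts, was at 9.16, 8.83, 8.92, 8.60 and 8.86 in control. In inulin mice 1 to 6 it was at 9.30, 9.20, 9.04, 9.0, 8.12 and 8.76. Inulin 1 and 2 were the highest of all mice and inulin 5 the lowest by a wide margin. The means, 8.87 ± 0.20 (SD, n = 5) and 8.90 ± 0.42 (SD, n = 6), differed by 0.03 with an interval from -0.35 to 0.42. Crypt base and stem cell markers had a lower inulin mean in 8 of 8. Among these markers 6 had a limma unadjusted p under 0.05 (7.19% of all genes were lower at that p), and 0 passed the adjusted threshold. Their mean per mouse was 7.84 to 8.03 in control and 7.63 to 7.74 under inulin, with inulin 5 alone at 7.03, and their part in the Cldn2 values was not tested.

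Cldn15, a sodium channel claudin of the intestine, was at 9.82, 9.58, 9.60, 9.82 and 9.40 in control and between 9.44 and 9.80, with a median of 9.64, under inulin. The ranges covered each other, and the difference was -0.02 with an interval from -0.21 to 0.18, so that its sign has no weight. It was 0.01 with each array centred on its median. Cldn10 differed by -0.04 (its other probe set by -0.08), and 5 inulin mice had it at 3.60 to 3.91 against 4.54 in inulin 5. Cldn17, an anion channel claudin, differed by -0.14 at low signal (3.11 in control and 2.97 under inulin). Its control values were 3.07, 2.98, 3.21, 3.17 and 3.11, its inulin values ran from 2.85 to 3.09 with a median of 2.97, so that they overlapped.

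Among the remaining claudins Cldn8, a claudin of the distal colon that limits the back-leak of sodium, had the widest difference of the 57 genes. It was at 9.73, 9.76, 9.85, 9.55 and 10.05 in control mice 1 to 5 and at 9.02, 8.74, 9.64, 9.31, 8.40 and 9.83 in inulin mice 1 to 6. Inulin 1, 2, 4 and 5 lay below every control, and inulin 3 and 6 inside the control range. The means, 9.79 ± 0.18 (SD, n = 5) and 9.15 ± 0.54 (SD, n = 6), differed by -0.63 ± 0.22 (SE), so that inulin mice had 0.645 of the control value with limits of 0.465 and 0.895. This was not past the threshold (limma adjusted p 0.24, unadjusted p 0.013).

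Markers of position along the colon were lower in the inulin mean as well. All 5 distal Hox genes measured had a lower mean. Of these, 4 had an unadjusted p under 0.05 (7.19% of all genes were lower at that p) and 0 passed the adjusted threshold. Hoxd10 and Hoxd11 had the widest differences, -1.50 and -1.45 (limma adjusted p 0.055 for both), and Hoxa13 the smallest, -0.46. The list mean of the 5 was 6.94 to 7.97 in control and 6.36 to 7.26 under inulin. Hoxa13 and Hoxb13 mark the distal end of the gut. The mean of Hoxa13 and Hoxb13 was 9.27, 9.17, 9.40, 8.79 and 9.40 in control and 8.52, 8.34, 8.99, 7.67, 9.11 and 9.38 in inulin mice 1 to 6. Control 4 was the lowest control in both measures, and inulin 3 and 6, the inulin mice highest in Cldn8, were at 8.99 and 9.38. Inulin 5 was lowest in Cldn8 but at 9.11 in the mean of Hoxa13 and Hoxb13. In Hoxd10, by contrast, inulin 5 was the lowest of all mice at 5.14. Inulin 3 was next in Hoxd10 at 5.39, and inulin 6 was the highest inulin mouse at 6.55. With the mean of Hoxa13 and Hoxb13 as a covariate the Cldn8 difference was -0.52 (limma adjusted p 0.44). With fat cell and pancreas marker means as covariates it was -0.24 (adjusted p 0.68), and without inulin 3, 4 and 5 it was -0.59 (adjusted p 0.26). Leaving out each mouse in turn gave -0.77 to -0.48. The part of position along the colon in the Cldn8 difference was not tested.

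**Figure D2:**
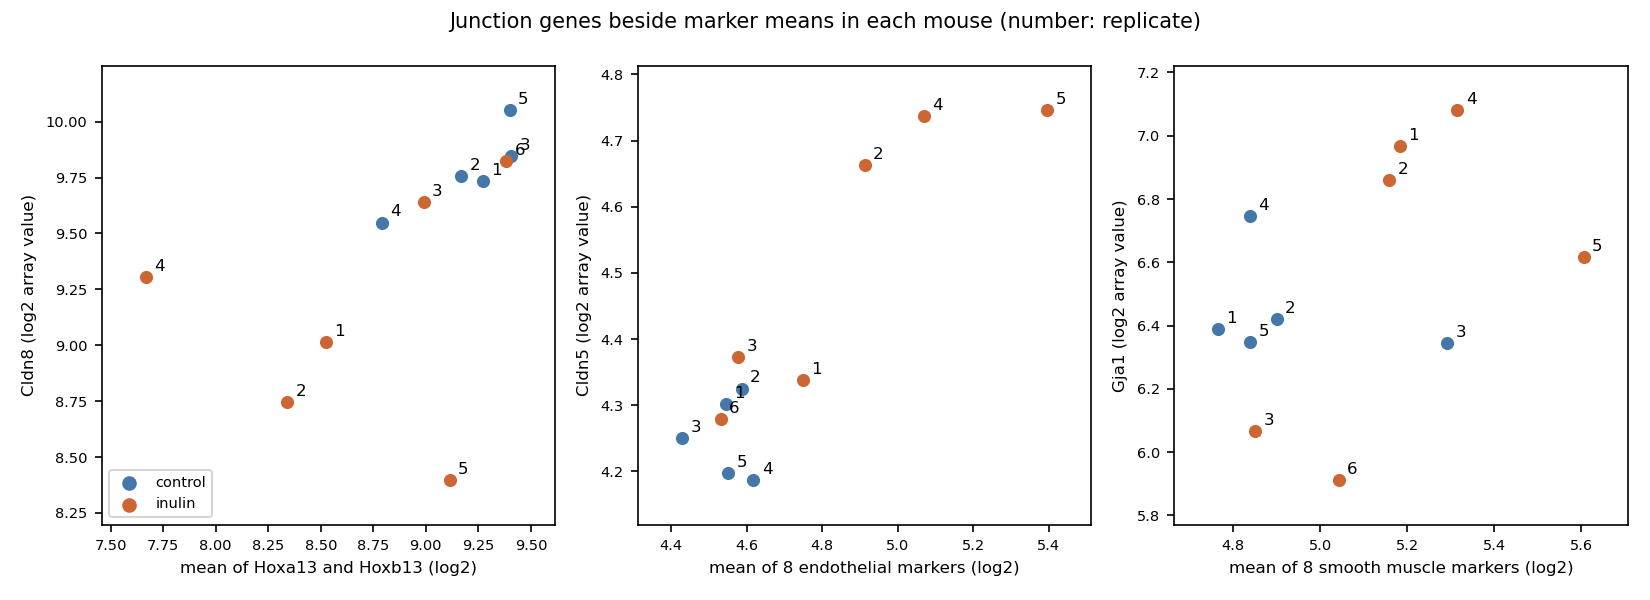
Log2 values of Cldn8, Cldn5 and Gja1 (vertical axes) beside the mean log2 value of Hoxa13 and Hoxb13, of 8 endothelial markers and of 8 smooth muscle markers (horizontal axes), 1 point per mouse with its replicate number. Cldn8 was lowest in inulin 5 at 8.40, Cldn5 was highest in inulin 2, 4 and 5, and Gja1 was highest in inulin 1, 2 and 4.

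Cldn23, a claudin of differentiated surface epithelium, had the smallest p of all members. It was at 7.94, 7.71, 7.81, 7.87 and 7.53 in control and at 7.89, 8.07, 7.97, 7.93, 8.33 and 8.11 in inulin mice 1 to 6. Only control 1 reached into the inulin range, and inulin 5 was highest. The difference was 0.28 ± 0.090 (SE), 1.22-fold with an interval from 1.06 to 1.39, and did not pass (limma adjusted p 0.21). It was 0.22 without inulin 5, 0.33 with the Hoxa13 and Hoxb13 covariate and 0.18 with fat cell and pancreas covariates. Colonocyte markers were higher in 8 of 10, 0 of them past the adjusted threshold, with a list mean from 11.27 to 11.43 in control and 11.33 to 11.61 under inulin, inulin 5 again being highest. Their part in the Cldn23 difference was not tested.

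Cldn12, linked to calcium passage between cells, was at 8.91, 8.80, 9.03, 8.85 and 8.79 in control and at 8.94, 8.62, 8.66, 8.62, 8.54 and 8.87 in inulin mice 1 to 6. Inulin 2 to 5 lay below all controls and inulin 1 and 6 among them. The difference was -0.17 ± 0.080 (SE, limma adjusted p 0.39), but it was 0.0067 with the fat cell and pancreas covariates and -0.06 without inulin 3, 4 and 5. Cldn7, the claudin of lateral membranes, was at 10.85, 10.95, 10.89, 11.0015 and 10.92 in control. Under inulin its lowest, median and highest values were 10.86, 10.91 and 11.17, the last in inulin 5. The ranges overlapped, with a difference of 0.03 and an interval from -0.11 to 0.16. Cldn4, which tightens the barrier in many epithelia, differed by 0.04 (interval -0.19 to 0.26) and Cldn20 by -0.03. The low-signal members Cldn22, Cldn13, Cldn24 and Cldn16 had differences from -0.05 to 0.11.

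**Figure D3:**
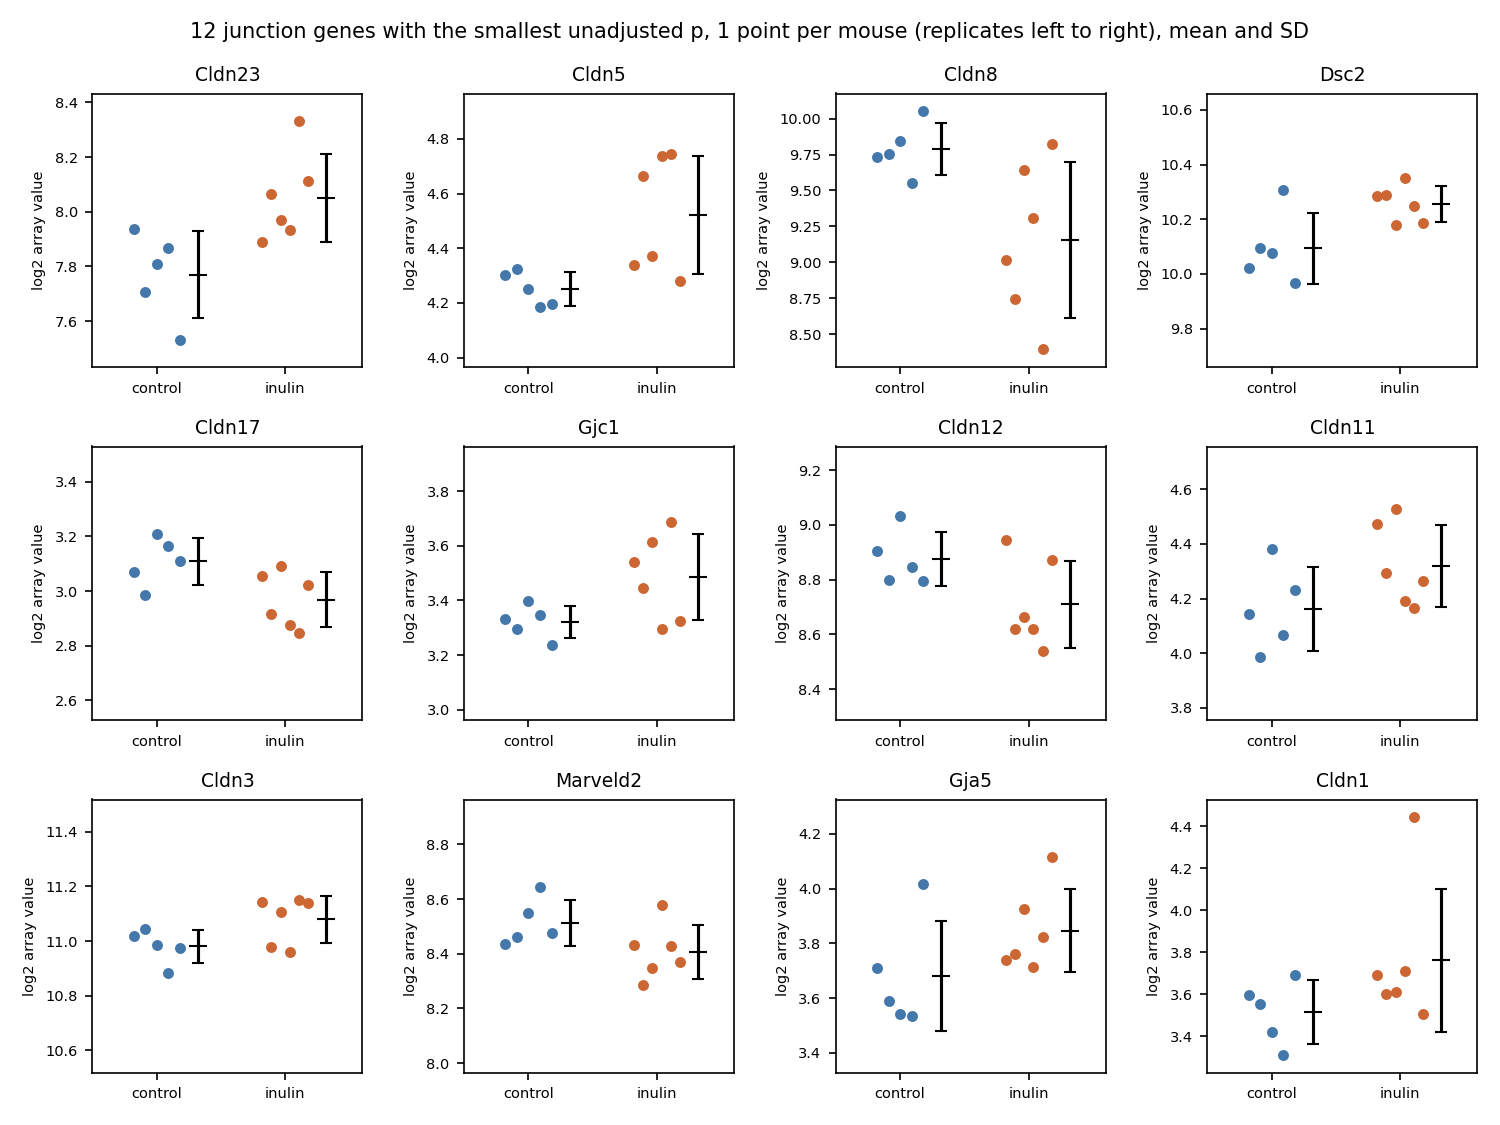
Log2 array values of the 12 junction genes with the smallest unadjusted p, 1 point per mouse, with the mean and SD of each diet beside the points. The diets overlapped in each of the 12, and in Cldn8 the inulin values ran from 8.40 to 9.83 against 9.55 to 10.05 in control.

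The tight junction partners and scaffolds had differences from -0.11 to 0.15, with a median of 0.0046 and 0 of 8 past the test. F11r, an adhesion molecule of the immunoglobulin family at the junction, was at 10.80, 10.87, 10.76, 10.85 and 10.80 in control. Its inulin values ran from 10.71 to 11.04 around a median of 10.77, with inulin 5 the highest. The difference was -0.01 with an interval from -0.15 to 0.12, and turned to 0.01 with each array centred on its median. Ocln, the first tight junction membrane protein described, differed by 0.04 (interval -0.07 to 0.15). The scaffolds Tjp1 and Tjp3 differed by 0.02 and 0.01, and Cgn, which links the junction to myosin, by -0.05. Marveld1 and Marveld3, relatives of Ocln, differed by 0.15 and 0.0006, and control 5 alone had Marveld1 at 6.09 against 6.46 to 6.68 in the other controls.

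Where 3 cells meet, Marveld2 (tricellulin) closes the corner, and Lsr and Ildr1 bring it there. Marveld2 was at 8.44, 8.46, 8.55, 8.64 and 8.48 in control and had 8.29, 8.40 and 8.58 as its lowest, median and highest inulin values. The ranges overlapped, and the difference was -0.11 ± 0.061 (SE, limma adjusted p 0.48). Ildr1, which is not among the 57 genes, was at 10.37, 10.42, 10.23, 10.51 and 10.38 in control and at 10.68, 10.68, 10.59, 10.65, 10.72 and 10.62 under inulin. Every inulin mouse was above every control, as in 1.01% of all genes and 1.2% of those with signal. Lsr was at 9.02, 8.84, 9.07, 8.71 and 9.01 in control and at 8.62, 8.39, 8.63, 8.18, 8.26 and 8.71 under inulin, so that every inulin mouse was below every control, as in 1.16% of all genes and 1.46% of those with signal. Inulin 6 and control 4 shared the value to 2 decimals.

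These 2 partners of Marveld2 thus differed in opposite directions, Ildr1 by 0.28 ± 0.054 (SE) and Lsr by -0.47 ± 0.10 (SE). They had the smallest unadjusted p of 22 other tight junction partners, and neither passed the threshold of 0.05 (limma adjusted p 0.069 and 0.096). Ildr2, of the same list, differed by 0.07 (limma adjusted p 0.76). For Ildr1 the difference stayed between 0.24 and 0.31 over all alternatives, with adjusted p from 0.028 (array weights) to 0.26 (fat cell and pancreas covariates). It passed 0.05 with array weights, a trended variance prior (0.041), centred arrays (0.045) and genes under the 40th percentile left out (0.048). For Lsr it was -0.33 with the Hoxa13 and Hoxb13 covariate and -0.22 with fat cell and pancreas covariates, and adjusted p ran from 0.028 (replicate number as a block) to 0.37. It also passed 0.05 with array weights (0.036).

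**Figure D4:**
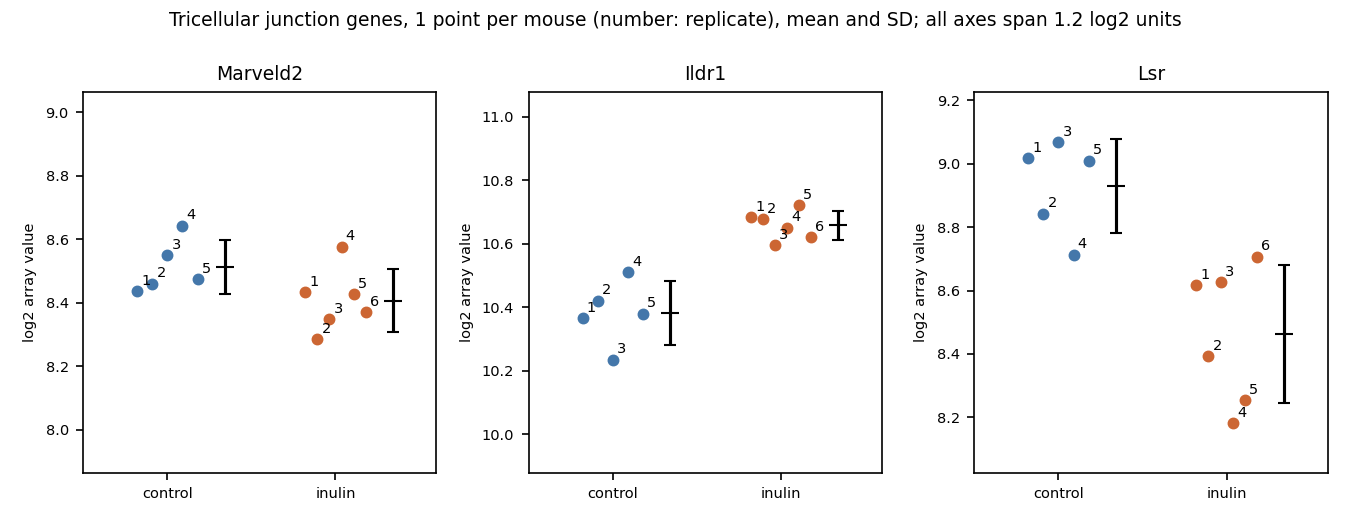
Log2 array values of Marveld2, Ildr1 and Lsr, 1 point per mouse with its replicate number, and the mean and SD of each diet; the vertical axes span the same number of log2 units. Ildr1 was higher in all 6 inulin mice than in any control, Lsr was lower in all 6, and Marveld2 overlapped.

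Further junction genes outside the 57 gave 0 calls past the adjusted threshold as well. Their counts at an unadjusted p under 0.05 stand beside 7.19% of all genes lower and 6.34% higher. Of 22 other tight junction partners 1 was higher (Ildr1) and 3 were lower, with a median difference of 0.01. Of 13 polarity genes 1 was higher and 3 were lower: Mpp5, a scaffold of the Crumbs complex, differed by 0.20 and Llgl1, a basolateral polarity protein, by -0.14 (limma adjusted p 0.23 and 0.24). In Llgl1 and Pard3 every inulin mouse was below every control, as in 1.16% of all genes and 1.46% of those with signal. Of 12 adherens junction genes 1 was higher, Jup, the plaque protein shared with desmosomes, at 0.13 (adjusted p 0.30), and Nectin1 had -0.21 (adjusted p 0.45). Of 3 pannexins, which form channels in single membranes, Panx2 had 0.15 and Panx1 0.12 (adjusted p 0.33 and 0.50), the latter 0.07 without inulin 5.

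Of the connexins, 0 of 12 passed, and 8 had signal. Gjb2, found in many epithelia, was at 7.18, 7.0, 6.87, 7.03 and 7.02 in control and between 6.93 and 7.18, with a median of 7.0, under inulin. Its diets were level within the spread, with a difference of -0.0006 and an interval from -0.14 to 0.14, and that sign turned under several alternatives. Gjb1, the connexin of secretory gland cells, differed by -0.01, with inulin 5 at 5.70 against 6.11 to 6.36 in the other inulin mice. Gjb5, known from stratified epithelium, differed by -0.08 with a wide interval from -0.42 to 0.26.

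Gja1, a widespread connexin of muscle and connective tissue, had the largest SD under inulin of the 12 connexins. It was at 6.39, 6.42, 6.35, 6.75 and 6.35 in control and at 6.97, 6.86, 6.07, 7.08, 6.62 and 5.91 in inulin mice 1 to 6. Inulin 1, 2 and 4 were above all controls and inulin 3 and 6 below all of them, so that the SD was 0.17 in control and 0.49 under inulin. The difference of 0.13 had an interval from -0.29 to 0.56. Smooth muscle markers were higher in 8 of 8, 0 past the adjusted threshold, with a list mean from 4.77 to 5.29 in control and 5.18, 5.16, 4.85, 5.32, 5.61 and 5.04 in inulin mice 1 to 6; their part in the spread of Gja1 was not tested.

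Gja4 and Gja5, connexins of vessel walls, differed by 0.04 and 0.17. Gja5 was at 3.71, 3.59, 3.54, 3.54 and 4.02 in control and had 3.72, 3.79 and 4.12 as its lowest, median and highest inulin values, close to the lower quartile. Control 5 lay among the inulin mice (limma adjusted p 0.48). Gjc1, a connexin of smooth muscle, had low signal, with 3.33, 3.29, 3.40, 3.35 and 3.24 in control and 3.30 to 3.69, median 3.49, under inulin. Its difference of 0.16 had an adjusted p of 0.36. Gja3 and Gja6 differed by 0.09 and 0.12, and Gja10, Gjb6 and Gjc3, at low signal, by 0.03, -0.04 and -0.04.

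Simple epithelium of the gut builds its desmosomes from Dsg2 and Dsc2, and only these 2 of the 7 desmosomal cadherins had signal. Dsc2 was at 10.02, 10.09, 10.08, 10.31 and 9.97 in control and at 10.29, 10.29, 10.18, 10.35, 10.25 and 10.19 in inulin mice 1 to 6. All inulin mice were above 4 of the controls, and control 4 lay within the inulin range. The difference was 0.16 ± 0.064 (SE), 1.12-fold with an interval from 1.02 to 1.23 (limma adjusted p 0.30). It was 0.09 with the Hoxa13 and Hoxb13 covariate. Dsg2 was at 10.81, 10.96, 10.85, 10.87 and 10.90 in control and ran from 10.88 to 11.18, median 10.92, under inulin. Inulin 5 held the highest value, and the difference of 0.08 (interval -0.05 to 0.22) was 0.04 without inulin 5 and -0.01 with fat cell and pancreas covariates.

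The desmogleins and desmocollins of skin and other stratified epithelium, Dsg1b, Dsg1c, Dsg3, Dsg4 and Dsc3, were at low signal by their mean over the 11 arrays. Their means per diet lay between 2.92 and 3.80, with Dsg1b under inulin the highest. Of the 12 squamous epithelium markers 8 were higher and 4 lower in the inulin mean. The differences of 11 of them lay between -0.08 and 0.09, with the defining markers Krt5, Krt14 and Trp63 at 0.07, 0.03 and 0.03. The other, Sprr1a, was at 7.57 in control and 8.09 under inulin, a difference of 0.52 (limma unadjusted p 0.0074, adjusted p 0.20). Dsg1b and Dsg1c are close copies of each other and had opposite signs, 0.21 and -0.16, neither past the test. Whether their probe sets share signal was not tested.

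In the desmosomal plaque 0 of 5 genes passed. Dsp, which ties the plaque to keratin, was at 11.24, 11.36, 11.32, 11.32 and 11.26 in control and between 11.13 and 11.34, median 11.26, under inulin. Inulin 1, 2 and 3 were below every control and inulin 4, 5 and 6 within their range, with a difference of -0.04 and an interval from -0.16 to 0.07. A second, dimmer probe set of Dsp, at 7.68 in control and 7.83 under inulin, differed by 0.15 ± 0.12 (SE, limma unadjusted p 0.22). The mean of both gave 0.05, so the sign for Dsp depends on the probe set. Neither probe set had an unadjusted p under 0.05. The plakophilins Pkp2, Pkp3 and Pkp4 differed by 0.09, 0.11 and 0.07 and Pkp1, chiefly of stratified epithelium, by -0.11. Of 9 desmosome partners and keratins, 2 were higher and 1 was lower at an unadjusted p under 0.05 (6.34% and 7.19% of all genes), 0 past the adjusted threshold. Krt20, the keratin of differentiated colonocytes, differed by 0.30 and Krt23 by -0.27 (limma adjusted p 0.16 and 0.31).

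Cdh1 (E-cadherin), the adhesion molecule of adherens junctions, was at 11.77, 11.95, 11.86, 11.83 and 11.78 in control and at 11.66, 11.73, 11.72, 11.67, 11.93 and 11.81 in inulin mice 1 to 6. Inulin 1 to 4 were below every control and inulin 5 and 6 within their range. The difference was -0.09 ± 0.060 (SE) with an interval from -0.22 to 0.05 (limma adjusted p 0.58). It was -0.12 without inulin 5. Cdh17, the cadherin of intestinal epithelium, went the other way with 0.09 ± 0.057 (SE, adjusted p 0.50), and inulin 5 held its highest value at 11.86. Both intervals lay within 1.5-fold.

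Many junction genes are neighbours on the chromosome. By the gene order of the RefSeq table of GRCm38.p6, 21 of the 57 lie in 9 runs with no other protein-coding gene between them. Cldn8 and Cldn17 form such a pair, with differences of -0.63 and -0.14. Cldn3 and Cldn4 had 0.10 and 0.04, Cldn1 and Cldn16 had 0.25 and -0.05, Cldn6 and Cldn9 had -0.05 and 0.07, and Ocln and Marveld2 had 0.04 and -0.11. Neighbours thus carried both like and unlike signs, none past the test.

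Of the 40 junction genes with signal, inulin 5 was the highest or the lowest of the 11 mice in 20 (50%), against 40.8% of all 14619 genes with signal. No other mouse held an end of the range in more than 9 of the 40. The SD was larger under inulin than in control in 30 of 40 (75%), against 72.1% of all genes with signal. Without inulin 5 it was larger in 19 of 40 (47.5%), against 60.7%.

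**Figure D5:**
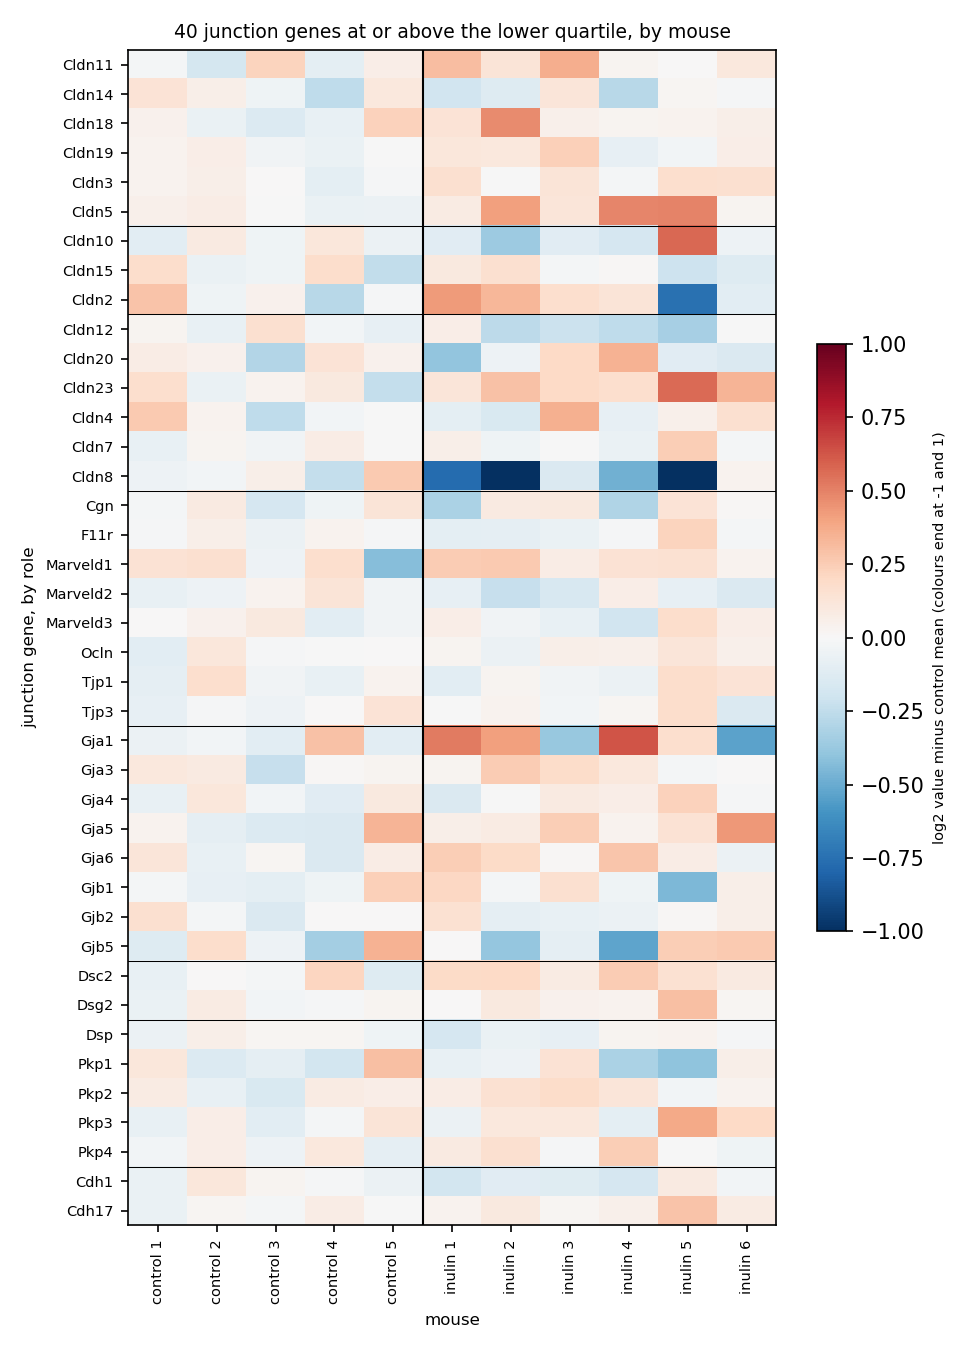
Log2 value minus the control mean (colour; red above, blue below) of the 40 junction genes with signal, in rows by role, for the 5 control and 6 inulin mice in columns. Most cells are pale; the darkest lie in Cldn8 (inulin 1, 2 and 5) and Cldn2 (inulin 5).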

How the data were processed

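RNA of mucosal scrapings from 11 mice was measured on 1 array each. The authors deposited 1 table of log2 values, for which the submitters' processing notes name RMA, the robust multi-array average. For its version and the build, the sources used here name none. RMA makes the arrays alike, which removes any shift shared by most genes. No scanner values were used, so background was not measured. The number of arrays limits the precision.

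Of 35556 probe sets, 21218 had 1 gene symbol in the platform annotation, 1881 had several and 12457 had none; the last 2 kinds were not tested. Each of 18820 genes was represented by its brightest probe set, by mean value,, and 3 of the 57 junction genes had more than 1. All 57 symbols matched the RefSeq gene table. Inulin minus control was tested with limma 3.58.1 in R 4.3.3 (lmFit and eBayes, no covariate), with Benjamini-Hochberg adjustment over all genes and a threshold of 0.05. The script was tested on simulated data. Animals were separate mice, and no cage or batch is given.

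Members, lists and alternatives were chosen with earlier results of these data known. Values by mouse are given for the 12 members with the smallest unadjusted p and the member with the highest mean in each role; of the gene lists outside the 57, differences are given for the 2 genes with the smallest p. Cldn2, Gja1 and other members described beyond these were chosen after their values were seen, and mouse values of Ildr1 and Lsr were added for their role beside Marveld2. The difference of Ildr2 was added after it was seen. Mouse values of Hoxd10 were also added after they were seen. Alternatives were other variance priors, array weights, quantile normalisation, median centring, a filter at the 40th percentile, other handling of probe sets, a block for replicate number, fits without single mice, an unmoderated test, marker covariates and a threshold of 0.1.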

Additional observations from a re-analysis of the deposited data

Results flagged for a closer look

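Within a diet, a mouse was singled out when its gap to the nearest mouse took more of the group's range than Dixon's 95% limit allows, which chance does in about 1 of 20 groups (5%). Of 114 groups (57 genes, 2 diets) 12 met this, or 10.5%, and 6 of the 12 were inulin 5. The same share was not counted over all genes, so whether 10.5% is particular to junction genes was not tested. Inulin 5 was the highest or lowest mouse in 40.8% of all 14619 genes with signal. That mouse held Cldn1 at 4.44 (3.51 to 3.71 in the other inulin mice), Cldn10 at 4.54 (3.60 to 3.91), Cdh17 at 11.86 (11.60 to 11.68), Dsg2 at 11.18 (10.88 to 10.98), F11r at 11.04 (10.71 to 10.80) and Gjb1 at 5.70 (6.11 to 6.36). Cldn1 was at low signal.

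The other cases were spread over mice. Inulin 2 had Cldn18 at 4.48 (4.03 to 4.14 in the others) and inulin 1 had Dsg1c at 3.30 (2.72 to 2.90), at low signal. Among controls, control 3 had Gja3 at 5.24 (5.48 to 5.58) and Cldn20 at 5.39 (5.73 to 5.83), control 4 had Gja1 at 6.75 (6.35 to 6.42) and control 5 had Gjb1 at 6.39 (6.06 to 6.14). The cause was not tested.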

How the results depend on the processing

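The count of junction genes with an adjusted p under 0.05 was 0 under all 25 alternatives, where the smallest adjusted p of a member was 0.10 (Cldn8 without inulin 6). Of 719 values of the 29 named genes under these alternatives, 679 kept direction and side of the threshold, 8 (Ildr1 and Lsr, the threshold of 0.1 included) came past it and 32 changed sign, none of them past the threshold. Over all genes the count of 17 was 42 with a trended variance prior, 245 with array weights, 62 with arrays centred on their median, 52 with genes under the 40th percentile left out, 7 with all probe sets tested, 0 with the unmoderated test, 33 without inulin 3, 4 and 5, and 130 at a threshold of 0.1. Leaving out single mice gave 7 to 98: 7 without control 1 or 2, 10 without control 3, 38 without control 4, 8 without control 5, 9, 10, 11, 98 and 50 without inulin 1, 2, 3, 5 and 6. With centring the median over all genes was 0.030 in place of 0.0039.

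The count of 2 junction genes lower at an unadjusted p under 0.05 was 1 with array weights, centring, the low-value filter, the Hoxa13 and Hoxb13 covariate or without inulin 3, 4 and 5, and 0 with fat cell and pancreas covariates; leaving out single mice gave 1 to 4. The count of 4 higher was 2 with the low-value filter or fat cell and pancreas covariates and 1 without inulin 3, 4 and 5; leaving out single mice gave 2 to 5. With fat cell and pancreas covariates 0 of the 6 genes kept an unadjusted p under 0.05, and the 2 higher were Cldn11 and Gja5. The filter tested 33 of the 57.

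The following differences changed sign, among them those of Cldn12 and Cldn1, which were -0.17 and 0.25. With fat cell and pancreas covariates Cldn12 was 0.0067, Cldn1 -0.046, Cldn15 0.03, Cldn7 -0.043, Gjb2 0.080 and Dsg2 -0.012. Without inulin 3, 4 and 5 Cldn15 was 0.041, Cldn7 -0.0017 and Gjb2 0.040. With centring Cldn15 was 0.010, Gjb2 0.025 and F11r 0.015. Gjb2 was 0.046 with quantile normalisation and 0.017 with the Hox covariate, F11r 0.011 with the latter, Cldn15 0.0033 with array weights, and Dsp 0.053 with the mean of its probe sets. Leaving out single mice gave Cldn15 -0.076 to 0.029, Cldn7 -0.015 to 0.048, Gjb2 -0.037 to 0.040 and F11r -0.058 to 0.0071. The cause was not tested.

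For same-numbered mice of the diets, the correlation of their deviations exceeded 0.1 in 2 of 5 pairs. Of 5 inulin mice, 3 were closest to the control of their own number. No cage or batch is given, so whether the number stands for anything shared cannot be told. With the replicate number as a block 95 genes passed over all genes, 0 junction genes passed, Lsr had an adjusted p of 0.028 and Cldn15 differed by 0.0075. Inulin 6 has no control of its number, so it adds nothing to the diet difference in the block fit. Without inulin 6 and without a block, 50 genes passed. Values near the lower quartile limit what the arrays can show.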
